A study of Danio rerio with 5 samples.

Results

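Accessible regions near the ends of the zebrafish chromosomes are described here, from peak lists of ATAC-seq, an assay that tags open DNA with adapters through the Tn5 transposase. A peak belonged to this set if it lay on chromosomes 1 to 25 other than chromosome 4 and started below 2000000 bp, or ended within 2000000 bp of the highest coordinate that any of the 5 lists reached on its chromosome. The rule used position alone, and 265 of the 5366 deposited peaks met it. Where peaks of different libraries shared at least 1 bp they were merged, which gave 77 end regions out of 1326 merged regions in the series, 1113 of them on the 24 chromosomes used.

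The libraries came from whole zebrafish of strain ABNYU at 120 h after fertilization, mutant 1 and mutant 3 from uhrf1 hi272 mutants and controls 1, 2 and 3 from their phenotypically normal siblings. The labels do not state the uhrf1 genotypes of these siblings, so the controls may include heterozygous carriers. Each library was made from 50000 live cells after trypsin, but the labels leave unsaid whether libraries came from separate pools of animals (they name 10 embryos in one place and 3 larvae per genotype in another). The p-values come only from reassigning the group labels or the signs of these libraries' own values. The differences among libraries may therefore be technical. The lists held 766 peaks in mutant 1, 1191 in mutant 3, and 806, 1229 and 1374 in controls 1, 2 and 3, and the read depth behind them is unknown.

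Chromosome ends carry the telomere repeats and, inside these, subtelomeric DNA that is often rich in repeats and in duplicated sequence shared between chromosomes. In many vertebrates this DNA is heavily methylated at CpG sites and packed as heterochromatin. UHRF1 binds hemimethylated CpG sites after replication and is needed to copy DNA methylation to the new strand, and the hi272 allele is a retroviral insertion in its gene. Peaks in repeated sequence carry a limit of their own, since a short read from one copy can be placed at another.

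The windows themselves need a caution before the values. At low coordinates they start at the first base of the chromosome sequence. At high coordinates they end at the outermost peak and not at the last base, because the chromosome lengths of the build were not used here, so a window there may lie inside the true end. Every high-coordinate window therefore holds at least 1 region by construction, and these 24 outermost regions are set apart where it matters. Of the 24 low-coordinate windows, 17 held a region, and those of chromosomes 1, 3, 11, 14, 16, 18 and 24 held none in any library.

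The chromosome ends held a smaller share of the peaks than of the length, but the direction depended on the dense clusters of peaks, none of which lay at an end. With the outermost regions kept, it also depended on the size of the window. In the mutants 5.43% and 5.61% of the peaks on the 24 chromosomes were end peaks (34 of 626 in mutant 1 and 57 of 1016 in mutant 3). In the controls the shares were 5.44%, 6.13% and 6.27% (37 of 680, 64 of 1044 and 73 of 1164 in controls 1, 2 and 3). The windows made up 7.73% of the 1242 Mb that the lists span, so end peaks were at 0.703 to 0.812 times the share of length, below it in 5 of 5 libraries. Averaged on the log2 scale over the libraries, the ratio was 0.746 (exact sign-flip permutation test over libraries, two-sided p = 0.063, the smallest that 5 libraries allow). The direction turned with windows of 1 Mb, where the mean log2 ratio was 0.25 with clusters kept, against -0.42 for windows of 2 Mb. Both values include the outermost regions, which every high-coordinate window holds by construction and which weigh more in a shorter window. Without them the value was -0.86 for windows of 2 Mb, and windows of 1 Mb were not examined without them.

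Dense clusters, taken as runs of 10 or more merged regions less than or equal to 50 kb apart, held 490 of the 1036 interior regions (47.3%) and 0 of the 77 end regions. The nearest of the 20 clusters lay 12.1 Mb from the first base of its chromosome and the nearest at high coordinates lay 5.63 Mb inside the outermost peak. With the clusters left out, end peaks made up 11.8% and 13.04% of the peaks in mutants 1 and 3, against 12.5%, 12.7% and 12.2% in controls 1, 2 and 3. These shares were 1.53 to 1.69 times the share of length, above it in 5 of 5 libraries (p = 0.063, the same exact test). The clusters were defined by the density of peaks in these same lists and held no end region. Leaving them out removed interior peaks alone and could only raise the end share, while their length stayed in the 7.73%. A higher ratio in any setting without clusters, with its p-value, therefore cannot show an excess at the ends. Part of this excess was also built in by the outermost regions. Without them as well, the ratio was 1.16 to 1.32 across the libraries, averaging 1.21 (exact p = 0.063), and for the low-coordinate windows alone, which hold no such region, it was 1.08 to 1.36, averaging 1.22 (exact p = 0.063). Libraries are not independent draws of genomic positions, as they share most of their regions, so the tests speak of the libraries and not of the positions.

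**Figure D1:**
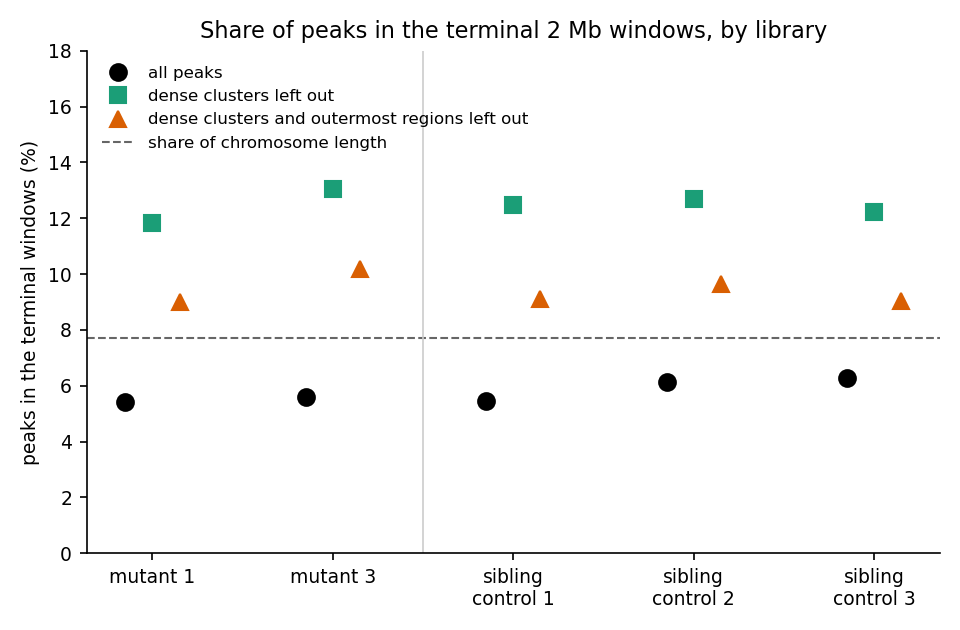
Percentage of each library's peaks on the 24 chromosomes that lay in the terminal windows (vertical axis), with uhrf1 mutants left of the line and sibling controls right of it. With all peaks the shares were 5.43% to 6.27%, below the dashed line at 7.73% of length, and with dense clusters left out they were 11.8% to 13.04%, above it. Leaving out the clusters removes interior peaks alone, so it could only raise the shares.

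The mutants were not set apart from their siblings by how much accessible chromatin was called at the ends. There were 45.5 ± 16.3 end peaks per mutant library (SD, n = 2) and 58.0 ± 18.7 per control library (SD, n = 3), and the exact permutation p was 0.4. As a share of peaks the ends held 5.52 ± 0.13% in mutants (SD, n = 2) and 5.95 ± 0.44% in controls (SD, n = 3) and the exact permutation p was again 0.4. The difference of -0.43 percentage points was -0.02 with dense clusters left out. The outermost regions, set by whichever list reached furthest, are included in these values. Without them the shares were 4.17 ± 0.17% in mutants (SD, n = 2) and 4.34 ± 0.39% in controls (SD, n = 3). That difference was -0.17 percentage points (permutation p = 0.6, exact). End peaks covered 33.3 and 36.6 kb in mutants 1 and 3, and 31.0, 38.4 and 40.6 kb in controls 1, 2 and 3, so the ranges overlapped. That was 5.36 ± 0.57% of the covered length in mutants (SD, n = 2) and 5.63 ± 0.47% in controls (SD, n = 3) (permutation p = 0.6, exact), and the difference changed sign without mutant 1 (0.14 percentage points). All these tests compare 2 with 3 libraries by the difference of means and cannot give a p below 0.2, so a p of this size does not show that the genotypes are alike.

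End peaks were narrower than interior peaks of the same library. The median end peak was 447 bp wide in mutant 1 and 273 bp in mutant 3, against interior medians of 757 and 391 bp in those libraries. In controls 1, 2 and 3 it was 386, 275 and 273 bp at the ends, against 595, 395.5 and 339 bp in the interior. The mean difference, end minus interior, was -165 bp, and it was negative in 5 of 5 libraries (exact sign-flip permutation p = 0.063). It was -109 bp with dense clusters left out, where control 3 had wider end peaks by 19.0 bp (exact p = 0.125), and 18.4 bp, the opposite direction, for the low-coordinate windows with clusters left out (exact p = 0.5625). Without the outermost regions the difference was -87.4 bp (exact p = 0.063), and without clusters as well it was -31.8 bp (exact p = 0.375). For the low-coordinate windows with clusters kept it was -37.2 bp (exact p = 0.5625). Between the genotypes the median widths of end peaks, 360 ± 123 bp in mutants (SD, n = 2) and 311 ± 64.7 bp in controls (SD, n = 3), overlapped (permutation p = 0.8, exact). Without mutant 1, which had the widest, the mutant value was below the control mean by a difference of -38.3 bp.

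Within the terminal windows, regions were packed most closely in the outermost 100 kb. At low coordinates, where the first base is known, the first 100 kb of the 24 chromosomes held 7 regions in 2.40 Mb, or 2.92 per Mb. The remaining 1.9 Mb of those windows held 19 regions in 45.6 Mb, or 0.42 per Mb. The interior had 0.90 per Mb, and 0.48 per Mb with the regions in dense clusters left out. Both interior values are over the whole interior length, so the 0.48 keeps the length of the clusters. The distance of 100 kb was chosen after the positions were seen, and 7 regions are few. These 7 regions lay on chromosomes 2 (a pair), 6, 9, 10, 13 and 15, and gave 4 peaks in mutant 1, 7 in mutant 3 and 6 in each of controls 1, 2 and 3. Those of chromosomes 6, 10 and 13, and the first of chromosome 2, belong to a group described below for its high values in control 3. The density near the low-coordinate ends thus rests in large part on that group. At high coordinates the last 100 kb before and including the outermost peak held 31 regions, of which 24 were the outermost ones themselves. The other 7 came to the same 2.92 per Mb, with the reservation that this distance is counted from a peak.

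**Figure D2:**
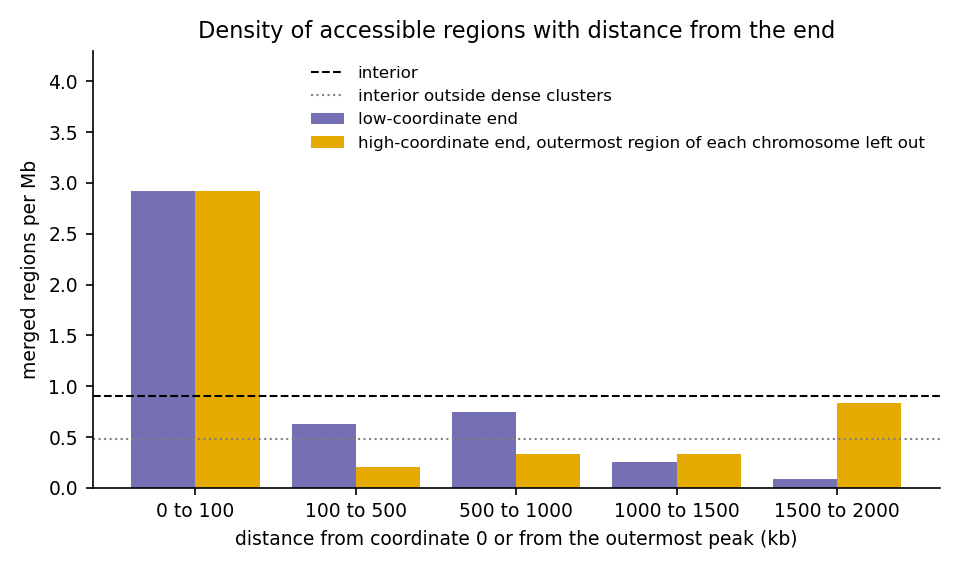
Merged regions per Mb over 24 chromosomes (vertical axis) in bins of distance from the first base at low coordinates or from the outermost peak at high coordinates (horizontal axis, kb), the outermost region itself left out. The bin nearest the end stands at 2.92 per Mb on both sides, above the interior at 0.90 (dashed) and the interior outside dense clusters at 0.48 (dotted). Both interior values are over the whole interior length, clusters included.

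The 5 low-coordinate ends approached most closely were those of chromosomes 2, 15, 10, 9 and 13. The region at chr2:73-398 (coordinates count from 1 and were read as GRCz10) started 72 bp after the first base, with fold enrichments of 2.06 in mutant 3 and 2.50, 2.34 and 3.85 in controls 1, 2 and 3, and no peak in mutant 1. Fold enrichment is the authors' ratio of a peak to its background in the same list, and across lists it is set side by side without a test. At chr15:6915-7415 it was 2.53 and 2.30 in mutants 1 and 3 and 1.98 in control 2, with no peak in controls 1 and 3. This is 1 of 2 end regions (2.60% of 77) with a peak in both mutants and a single control, that in control 2. The other was chr17:1794944-1795437 (1.64 and 1.65 in mutants 1 and 3, 1.80 in control 2). Of the 1036 interior regions, 4 (0.386%) had both mutants with control 1 alone, 1 (0.0965%) with control 2 alone and 6 (0.579%) with control 3 alone. With 2 regions at the ends, no difference from the interior can be read from these counts. The region at chr9:32208-32394 had 2.10 in mutant 3 and 2.41 and 2.29 in controls 1 and 3. The regions at chr10:14702-15476 and chr13:60892-61277 belong to a group of similar regions described next.

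At 9 of the end regions called in 4 or 5 libraries, control 3 had a fold enrichment more than 1.5 times that of every other library with a peak. Mutant 1 was lowest wherever it had a peak, and the order of mutant 3 and controls 1 and 2 changed between regions. Control 3 ran from 3.85 to 4.88 over the 9 regions, controls 1 and 2 from 1.96 to 2.68 and from 2.05 to 2.79, mutant 3 from 2.06 to 2.55, and mutant 1, which had a peak at 6 of them, from 1.67 to 1.91. They lay on 8 chromosomes, at the low-coordinate end of chromosomes 2, 6, 10 and 13 and at the high-coordinate end of chromosomes 6, 7, 12, 16 and 18, and were 326 to 1225 bp wide. All 9 were within 64.9 kb of the first base or of the outermost peak, and 8 were the first or the last region of their chromosome. Another region, chr17:53344195-53344467, the outermost of its chromosome, met the same limit but was called in 3 libraries, with 2.00 in mutant 3 and 1.99 and 3.53 in controls 2 and 3, and is not counted. The group was picked out after its values were seen, so the counts below are a description.

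The region at chr10:14702-15476 had fold enrichments of 1.89 and 2.53 in mutants 1 and 3, and of 2.52, 2.79 and 4.88 in controls 1, 2 and 3. At the last region of chromosome 12, chr12:49010393-49010982, the folds were 1.76 and 2.55 in the mutants and 2.43, 2.39 and 4.55 in controls 1, 2 and 3. At the last region of chromosome 6, chr6:60215188-60215916, they were 1.91 and 2.25 in the mutants and 2.68, 2.49 and 4.62 in controls 1, 2 and 3. In each of these 3, control 3 was highest and mutant 1 was lowest. Mutant 3 lay among controls 1 and 2 or above them at the regions of chromosomes 10 and 12, but below both at that of chromosome 6, where the genotypes did not overlap. They did not overlap either at chr6:64924-65641, also of the group, with 1.67 and 2.30 in mutants 1 and 3 and 2.55, 2.41 and 4.57 in controls 1, 2 and 3. Within its own list the group ranked at the 90.7th to 94.3rd percentile of fold in control 3, but at the 8.88th to 22.7th in mutant 1. The other libraries lay between, at the 44.4th to 69.4th in mutant 3, the 17.9th to 59.6th in control 1 and the 42.8th to 76.4th in control 2. Over the whole group, the range of mutant 3 overlapped those of controls 1 and 2. Region by region, mutant 3 was below both at chr2:73-398 and chr6:60215188-60215916, above both on chromosomes 12, 13 and 18, and between them elsewhere. At chr6:60215188-60215916 the percentiles separated the genotypes. They were 22.7 and 55.9 in mutants 1 and 3 and 59.6, 66.965 and 93.5 in controls 1, 2 and 3. At the other regions of the group with a peak in both mutants, the genotypes overlapped.

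This pattern was seen at 9 of the 35 end regions that had a peak in control 3 and in at least 3 other libraries, and at 0 of 542 such interior regions. On chromosome 4 it was seen at 0 of 40. On unplaced scaffolds, sequences of the assembly without a chromosome position, it was seen at 2 of 71, KN149993.1 from 16179 to 16863 and KN150242.1 from 18990 to 19996. The first had folds of 1.66 and 2.38 in mutants 1 and 3, and of 2.56, 2.57 and 4.57 in controls 1, 2 and 3, much as the regions on chromosomes. A genome sequence was not used here, so whether these regions share sequence was not tested. What sets control 3 apart was not tested either. That list was the longest, and among interior regions with a peak in all 5 libraries control 3 had the highest fold at 38 of 472, fewer than any other library. At the ends it was highest at 11 of 28, but 6 of these 11 belong to the group, which was picked for a high control 3. The count of 11 is therefore not separate from that choice.

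**Figure D3:**
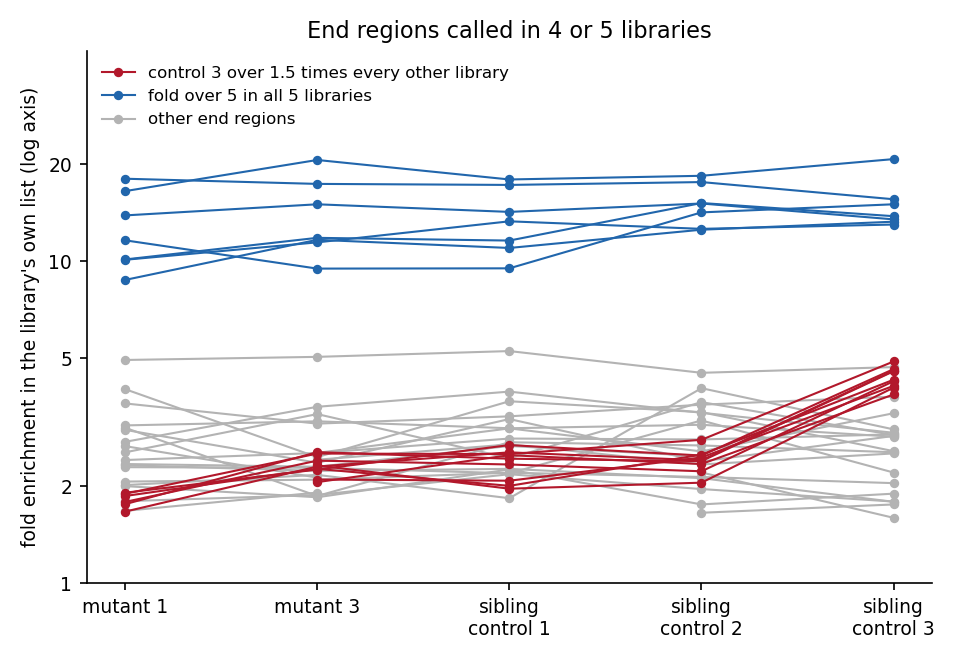
Fold enrichment in each library's own list (vertical log axis) for the 36 end regions with a peak in 4 or 5 libraries, mutants left of sibling controls; each line is a region, broken where a library had no peak. Lines in red are the 9 regions at which control 3 stands at 3.85 to 4.88, above 1.67 to 2.79 in the other libraries, and lines in blue are the 7 regions with a fold over 5 in all 5 libraries.

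The strongest sites among end regions common to all libraries had folds that overlapped between the genotypes at all but 1 of 7. They were 208 to 1809 bp wide. At these 7 of the 28 end regions with a peak in every library the fold was over 5 in all 5 lists, compared with 33 of 472 such interior regions (6.99%) and 14 of 197 outside dense clusters. The value of 5 was chosen after seeing that none of these 28 had a fold between 5.26 and 8.74 in any list, and the shares were not tested. Ranked by the mean percentile of fold, 6 of the first 10 regions common to all libraries on the 24 chromosomes were end regions. Of all 500 such regions, 28 were end regions, and this was not tested either.

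The highest was chr22:39223255-39223527, the outermost region of its chromosome, with 16.5 and 20.6 in mutants 1 and 3 and 17.9, 18.4 and 20.7 in controls 1, 2 and 3. A wider and weaker region lay 978 bp before it, chr22:39221231-39222276, with folds of 4.0 and 2.46 in the mutants and 3.67, 3.40 and 2.57 in controls 1, 2 and 3. On chromosome 17 a pair of strong sites stood 913 bp apart. The first, chr17:53292605-53292870, had 18.02 and 17.4 in mutants 1 and 3 and 17.2, 17.6 and 15.6 in controls 1, 2 and 3, and the second, chr17:53293784-53293991, had 8.74 and 11.6 in the mutants and 11.0, 12.5 and 13.3 in controls 1, 2 and 3.

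The third by rank was chr2:81391-81997, close to the low-coordinate end, with 13.9 and 15.01 in mutants 1 and 3 and 14.2, 15.1 and 13.5 in controls 1, 2 and 3. Near the high-coordinate end of the same chromosome, chr2:56358465-56358723 was 257 to 259 bp wide in every library, with 11.6 and 9.48 in the mutants and 9.50, 14.2 and 15.01 in controls 1, 2 and 3. The outermost region of chromosome 21, chr21:44162824-44163371, had 10.1 and 11.8 in the mutants and 11.6, 15.1 and 13.8 in controls 1, 2 and 3. In all of these the ranges of the genotypes overlapped. At chr21:42661483-42663291 they did not, with 10.1 and 11.4 in mutants 1 and 3 and 13.3, 12.6 and 13.0 in controls 1, 2 and 3. Of the 28 end regions common to all libraries, 4 had both mutants below all controls (14.3%) and 0 had both above (0%). Among these 4, the regions chr6:64924-65641 and chr6:60215188-60215916 belong to the group picked for a high control 3. Of the 472 interior regions, 11% had both below and 8.9% had both above. Folds of separate lists carry no test.

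The last 3 of the 10 highest common end regions were weaker. The outermost region of chromosome 25, chr25:34403039-34403440, had folds of 4.93 and 5.04 in mutants 1 and 3 and 5.26, 4.50 and 4.69 in controls 1, 2 and 3. At chr19:455748-457946 the folds were 3.62 and 3.13 in the mutants and 3.30, 3.58 and 3.79 in controls 1, 2 and 3. A second region, chr19:458523-459317, not among the 10, began 576 bp further on. Its folds were lower, 2.41 and 2.54 in the mutants and 2.81, 2.79 and 2.90 in controls 1, 2 and 3. This second region is 1 of the 4 above with both mutants below all controls. At chr21:1107122-1107304 the folds were 2.75 and 3.53 in the mutants and 3.93, 3.38 and 2.93 in controls 1, 2 and 3. None of the 3 ranked regions differed more between the genotypes than among the libraries of one genotype. Common end regions that were neither over 5 in fold in every list nor in the group raised in control 3 numbered 15, with folds from 1.76 to 5.26.

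Most merged end regions were at most 1 kb wide, and the widths of merged interior regions were not set beside them. The 77 merged regions had a median width of 266 bp and ranged from 95 to 8257 bp, and 10 were wider than 1 kb. The widest, chr5:820468-828724, lay in a run of 3 regions between 816080 and 837813 on chromosome 5, a span of 21.7 kb. Its peaks covered 7419 and 6755 bp in mutants 1 and 3 and 5189, 6442 and 5897 bp in controls 1, 2 and 3, so both mutants covered more of it than any control, in a region singled out for its width. Its fold was low, 1.80 and 1.88 in the mutants and 2.18, 1.96 and 1.79 in controls 1, 2 and 3. The neighbouring chr5:832809-837813 was covered almost end to end in each library, over 4965 and 5002 bp in the mutants and 4824, 4957 and 4752 bp in controls 1, 2 and 3. Second in width was chr20:55333303-55339455, whose peaks covered 5075 and 5958 bp in mutants 1 and 3 and 5913, 5556 and 5965 bp in controls 1, 2 and 3. With the 2 narrower regions after it, the last of them the outermost of the chromosome, it spanned 32.9 kb.

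In all, 20 of the 77 regions stood in 9 groups with gaps of at most 50 kb, none of more than 3 regions, and 57 stood alone. By chromosome end, the most regions were found at the high-coordinate end of chromosome 20 (5), the high-coordinate ends of chromosomes 21 and 22 and the low-coordinate end of chromosome 5 (4 each). The fifth place was shared by 6 ends with 3 regions each. At the high-coordinate end of chromosome 21 there were 3 and 6 peaks in mutants 1 and 3 and 3, 5 and 7 in controls 1, 2 and 3. At the low-coordinate end of chromosome 5 there were 3 and 7 in the mutants and 4, 6 and 6 in controls 1, 2 and 3. In both places mutant 1 and control 1, the shortest lists, had the fewest peaks, and the genotypes overlapped.

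**Figure D4:**
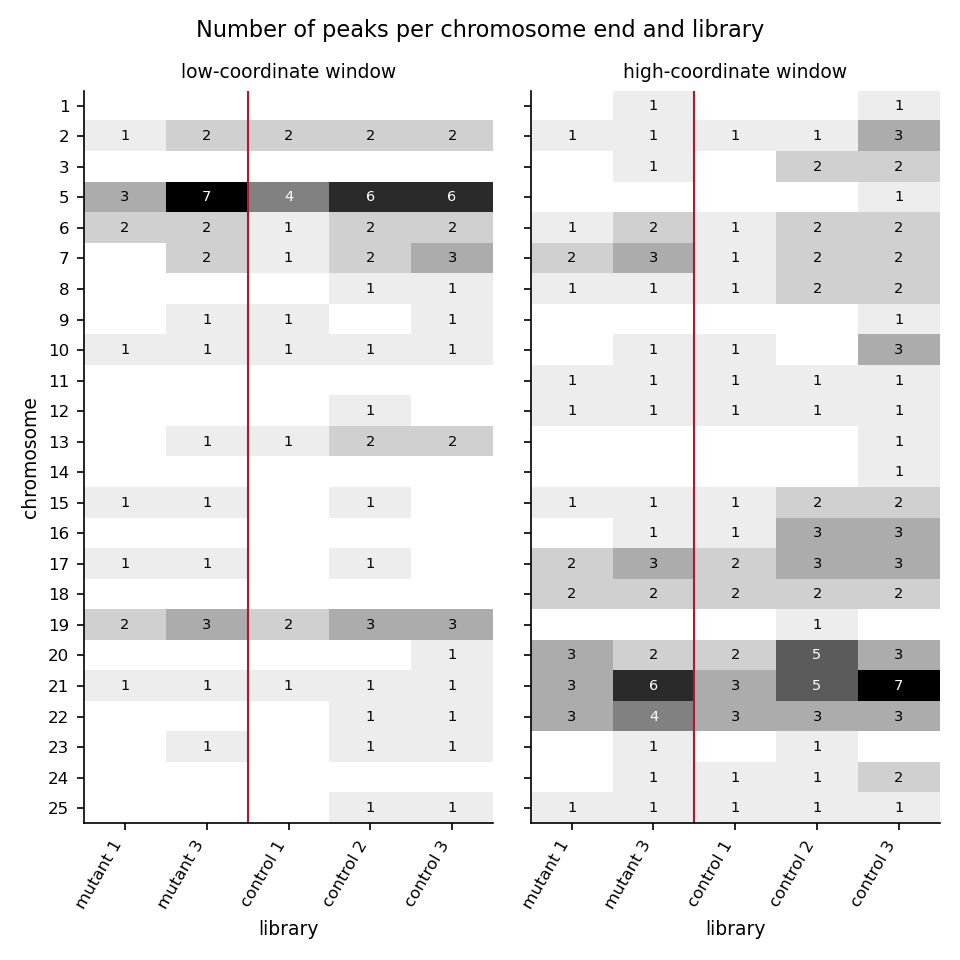
Number of end peaks in each library (columns, uhrf1 mutants left of the red line, sibling controls right of it) at each chromosome end (rows), with low-coordinate windows in the left panel and high-coordinate windows in the right panel. Counts run up to 7, at the low-coordinate end of chromosome 5 and the high-coordinate end of chromosome 21, and blank cells are 0.

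When each end was taken by itself, the mutants lay apart from all controls in their share of end peaks at 6 of the 41 ends that had a peak (14.6%). In the interior the same was so, for shares of interior peaks, at 7.38% of the 244 windows of 2 Mb with a peak. Both mutants were higher at 4 ends, against 6.97% of interior windows, and lower at 2 ends, against 0.41% of interior windows. The largest difference with the mutants higher was at the high-coordinate end of chromosome 7, which held 2 and 3 peaks in mutants 1 and 3, or 5.57 ± 0.44% of end peaks (SD, n = 2), against 1, 2 and 2 peaks in controls 1, 2 and 3, or 2.86 ± 0.23% (SD, n = 3). At the high-coordinate end of chromosome 16 the mutants were lower, with 0 and 1 peak, or 0.88 ± 1.24% (SD, n = 2), against 1, 3 and 3 peaks in controls 1, 2 and 3, or 3.83 ± 1.02% (SD, n = 3). Each of the 6 had the smallest exact permutation p, 0.2, and a Benjamini-Hochberg adjusted p of 0.911 over the 41 ends. Each rests on 0 to 3 peaks a library, and a single peak is 2.94% and 1.75% of end peaks in mutants 1 and 3 and 2.70%, 1.56% and 1.37% in controls 1, 2 and 3.

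End regions were shared among libraries about as often as interior regions outside dense clusters. A peak in all 5 libraries was found at 28 of the 77 end regions (36.4%), against 36.1% of the 546 interior regions outside clusters, 45.6% of all 1036 interior regions and 44.9% of all regions on the 24 chromosomes. Regions with a peak in a single library made up 24.7% at the ends and 25.8% of the interior outside clusters. Outermost regions are included at the ends, as 8 of the 19 in a single library and 8 of the 28 in all 5. The interior holds no such region, and the shares were not taken without them. Mutant 1 had a peak at 33 and mutant 3 at 51 of the 77 regions, and controls 1, 2 and 3 at 36, 58 and 67. After the common regions the most frequent sets were control 3 alone with 12 regions, controls 2 and 3 with 10, and mutant 3 with controls 2 and 3 with 6.

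**Figure D5:**
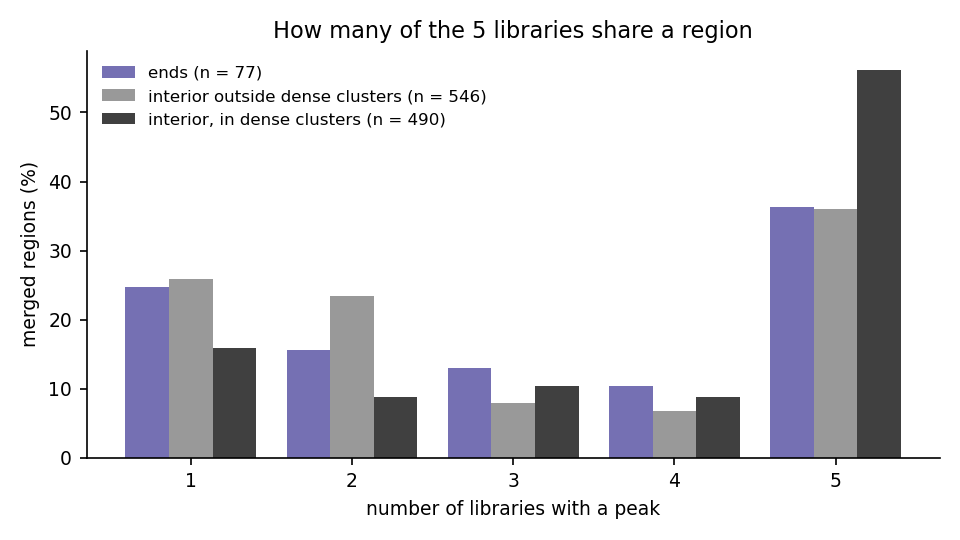
Percentage of merged regions (vertical axis) by the number of the 5 libraries with a peak (horizontal axis), for end regions, interior regions outside dense clusters and interior regions in dense clusters. The ends and the interior outside clusters have 36.4% and 36.1% of their regions in all 5 libraries, and the dense clusters have 56.1%. End regions include the 24 outermost ones.

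The ends held no region specific to a genotype. Regions that both mutants had and all controls lacked numbered 0 of 77, against 0.579% of interior regions, 0.549% of those outside dense clusters and 0.539% of all regions on the 24 chromosomes. Regions that all 3 controls had and both mutants lacked also numbered 0 of 77, against 0.193% of interior regions, 0.183% of those outside dense clusters and 0.18% of all regions. With such shares in the interior less than 1 region would be met among 77, so the counts of 0 tell little of the ends. For a single region the smallest Fisher exact p is 0.1, so no region could have passed a test. A peak in at least 1 mutant and no control occurred at 3 end regions, all of them in mutant 3 alone. They were chr22:37682012-37682123 with a fold of 2.90, chr23:43769820-43769914 with 1.83 and chr7:72376164-72376315 with 1.68. A peak in at least 1 control and no mutant was found at 26, and 12 of these were in control 3 alone, the longest list. Among the 12 were the outermost regions of chromosomes 2, 5, 9, 10, 13 and 14. Among the others of the 26 were those of chromosomes 8, 15, 19 and 23. Each outermost region met the rule by setting the end of its own window. The 3 regions were 3.90% of end regions, against 5.50% of interior regions and 4.95% of those outside dense clusters. The 26 were 33.8%, against 27.2% of interior regions and 39.0% of those outside dense clusters, so both shares were near those of the interior. The interior holds no outermost region, and these shares were not taken without such regions.

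Overlap between libraries at the ends did not follow the genotype. The Jaccard index, which divides the length covered in both libraries by that covered in either, was 0.722 for the mutant pair, averaged 0.6998 for the 3 pairs of controls (0.672 to 0.750) and averaged 0.707 for the 6 pairs of a mutant and a control (0.593 to 0.779). Pairs within a genotype differed from pairs across by -0.0022, less than the spread among pairs. The index was higher at the ends than in the interior for 9 of the 10 pairs, with means of 0.707 and 0.672. The exception was mutant 1 with control 3, at 0.593 and 0.604. Wide regions weigh most in this index, as in the covered length. The 3 widest, chr5:820468-828724, chr20:55333303-55339455 and chr5:832809-837813, had 7419, 5075 and 4965 bp of the 33.3 kb covered in mutant 1. In control 3 they had 5897, 5965 and 4752 bp of 40.6 kb. The index was not taken for the interior outside dense clusters. Pairs share libraries, so no test was made.

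End peaks ranked a little higher by fold enrichment than interior peaks of the same list. The median end peak stood at the 56.4th and 57.6th percentile in mutants 1 and 3, where interior medians were 49.9 and 48.7. In controls 1, 2 and 3 the end medians were 58.7, 60.2 and 64.8, and the interior medians were 49.1, 47.7 and 48.8. Both mutants were thus below all controls, at 57.0 ± 0.85 (SD, n = 2) against 61.2 ± 3.21 (SD, n = 3). This difference of -4.25 points had an exact permutation p of 0.2, the smallest that 2 against 3 libraries allow. Without the outermost regions it was -0.94 points, and the genotypes overlapped. The mean difference, end minus interior, was 10.7 percentile points, positive in 5 of 5 libraries (exact sign-flip permutation p = 0.063). With dense clusters left out it was 7.22 points, with mutant 1 at -0.78 (exact p = 0.1875). Without the outermost regions it was 7.66 points (exact p = 0.063), and without clusters as well it was 4.18 (exact p = 0.3125). For low-coordinate windows with clusters kept it was 4.45 (exact p = 0.125), with mutant 3 at -0.17. With clusters left out of that setting it was 0.97 (exact p = 0.875), so the higher rank was not seen there. Among end peaks, those with a q above 0.05 numbered 4 of 34 and 1 of 57 in mutants 1 and 3, and 1 of 37, 4 of 64 and 13 of 73 in controls 1, 2 and 3. As shares of end peaks these were 11.8% and 1.75% in the mutants and 2.70%, 6.25% and 17.8% in controls 1, 2 and 3. The shares of interior peaks were 7.77% and 4.38% in the mutants and 8.55%, 10.1% and 11.6% in controls 1, 2 and 3, so the ends were higher in mutant 1 and control 3 and lower in the other libraries.

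Low-coordinate windows held 26 of the 77 regions and high-coordinate windows 51. Without the 24 outermost regions, the high-coordinate windows held 27. The share of end peaks at low coordinates was 37.8 ± 3.58% in mutants (SD, n = 2) and 38.03 ± 2.51% in controls (SD, n = 3) (permutation p = 0.8, exact). Of the outermost regions, 8 had a peak in all 5 libraries and 8 in a single library. Regions just inside the limit of 2 Mb were chr17:1794944-1795437, called in 3 libraries with folds of 1.64 to 1.80, and chr21:42195418-42196635, called in all 5 with folds of 1.87 to 3.04. Just outside were chr3:2041519-2041796, called in 1 library with a fold of 2.35, and chr24:39884296-39884418, called in 2 with folds of 1.63 and 1.99.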

How the data were processed

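Accessible chromatin was assayed by ATAC-seq in 5 libraries of whole zebrafish at 120 h after fertilization, dissociated with trypsin and read as pairs of 150 bases, per the labels' protocols, 1 passage of which speaks of livers. FastQC 0.11.5, Trimmomatic, BWA and Picard, and the builds GRCz10, mm10 and GRCm38.p4, are named in the submitters' processing notes. The peak caller and any shift of Tn5 insertion positions are not given in the sources used. Coordinates were read as GRCz10 and counted from 1.

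The deposited files hold 1 peak list per library, called separately. For each peak the authors gave a fold enrichment over background, which is a ratio, a −log10 p-value and a −log10 q-value. The deposited score was 10 times the −log10 q, cut to a whole number, in 5366 of 5366 peaks. These values describe and rank peaks within their own list. Reads were not analysed here, so depth is unknown and no counting interval is given.

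End peaks were taken by position and peaks of the libraries were merged at 1 bp or more. Genotypes were compared over the 10 choices of 2 of 5 libraries (exact permutation, two-sided), and ends with the interior by sign flips within libraries. A region's fold in a library is the highest of its peaks there. The counting was tested on simulated lists. Regions named are the 10 common ones of highest mean fold percentile, those called in 1 genotype alone, the 5 widest, the nearest to 5 low-coordinate ends, and the 5 ends with most regions, while others were chosen after their values were seen. The set, its windows, the clusters and the tests were chosen with earlier results of these data known. Alternatives were q at most 1e-05, lists of equal length (766 peaks), windows of 1 and 5 Mb, no dense clusters, a reciprocal overlap of 50%, merging across gaps of 500 bp, each library left out, and blocks by replicate number. Regions carry no gene names or sequence, because GRCz10 sequence and genes were not used here. Software was Python 3.11.15 with numpy 2.4.6, pandas 2.3.3, scipy 1.17.1 and matplotlib 3.10.9.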

Additional observations from a re-analysis of the deposited data

How the results depend on the processing

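With 2 mutants, no alternative could bring an exact permutation p below 0.05, so stability here means direction and size, and unknown depth limits every count, as weak sites can go uncalled. The density of end peaks relative to length, -0.42 on the log2 scale, turned to 0.25 with windows of 1 Mb, the outermost regions kept. It turned to 0.69 with dense clusters left out, 0.28 with outermost regions left out as well, and 0.29 for low-coordinate windows with clusters left out. Leaving out the clusters removes interior peaks alone, so that step could only raise the value. The outermost and low-coordinate settings were chosen after seeing the data. The difference between genotypes in the end share of peaks turned to 0.32 percentage points with clusters and outermost regions left out. That in the end share of covered length turned to 0.0428 with clusters left out, 0.29 with outermost regions left out too, 0.0278 for low-coordinate windows and 0.38 for these without clusters. The end width difference between genotypes turned to -0.17 bp with lists of equal length, and the width of end against interior peaks to 18.4 bp for low-coordinate windows without clusters. The low-coordinate share of end peaks (a difference of -0.20 percentage points) turned to 2.44 with windows of 5 Mb. The Jaccard difference turned to 0.0171 with a q of at most 1e-05 and 0.0153 with lists of equal length.

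Regions called in both mutants alone numbered 2 with a q of at most 1e-05, 1 with lists of equal length and 2 with windows of 5 Mb, and those in the controls alone numbered 2 with lists of equal length. Regions in all libraries numbered 18 with the stricter q and 51 with windows of 5 Mb. Ends without overlap numbered 2 with the stricter q and 10 with windows of 5 Mb.

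Leaving out 1 library moved the differences between -0.68 and -0.26 percentage points (share of peaks), -24 and -1 (end peaks), -0.67 and 0.14 percentage points (covered length), -38.3 and 136 bp (width), -2.73 and 2.32 percentage points (low-coordinate share) and -0.0638 and 0.0485 (Jaccard). The covered length, the width and the low-coordinate share turned without mutant 1, the low-coordinate share also without control 2 (1.10), and the Jaccard difference without mutant 3 or control 1. Counts ran from 0 to 3 (mutants alone, 3 without mutant 1 and 2 without control 2), 0 to 10 (controls alone, 5 without mutant 3 and 10 without control 1), 28 to 34 (all libraries) and 7 to 19 (ends without overlap, 15 without mutant 1, 18 without mutant 3 and 19 without control 1), and fewer libraries loosen these definitions by construction. The other changes have causes that were not tested.

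Replicate numbers 1 and 3 are used for mutants and controls alike, and no label tells if this pairs samples. Over the 41 ends their deviations correlated at 0.21 and 0.46, which decides nothing, as deviations of 2 mutants mirror each other. The replicate block left out control 2 and gave a low-coordinate share difference of 1.10 percentage points, 2 regions in the mutants alone and 20 ends moving the same way in both pairs, and changed no other direction. Of 176 alternatives over 13 results, 137 kept the direction or, for counts, stayed within 1.5 times, though sizes varied: the end share of peaks ran down to -0.02 percentage points with clusters left out. Some of the 137 could not have changed. No end region lay in a cluster, so leaving out clusters repeats every value taken from end peaks alone. The count of 137 therefore overstates how stable the results were.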

Other observations

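The outermost region of chromosome 3, chr3:62289011-62289121, was strong where it was called, with folds of 6.20 in mutant 3 and 12.2 and 10.97 in controls 2 and 3, but mutant 1 and control 1, the shortest lists, had no peak there. It was at most 111 bp wide. The outermost region of chromosome 1, chr1:58621132-58621241, was called in mutant 3 with a fold of 2.34 and in control 3 with 2.40, and in no other library. At chr15:47104805-47105019, the outermost region of chromosome 15, controls 2 and 3 had folds of 4.305 and 3.13, and neither mutant nor control 1 had a peak. These regions were chosen after their values were seen.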
